A study of Mus musculus with 28 samples.

Results

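Signalling through gp130, the receptor chain shared by cytokines of the interleukin-6 family, was examined in single retinal cells through 10 of its genes. They were the receptor genes Il6st (gp130 itself), Lifr, Osmr and Cntfr, the ligand gene Lif, the transcription factor genes Stat3 and Cebpd, and the feedback genes Socs1, Socs2 and Socs3. The 10 genes were listed by name for their place in the pathway, and all 10 were among the 18194 genes that had a probe set with a single gene symbol. Where a gene had several such probe sets, the highest signal in each cell was used.

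The samples were Müller glial cells (MGCs), the radial glia of the retina, picked one at a time by their shape from dissociated mouse retinas and profiled on Affymetrix arrays after amplification of their cDNA. Adult wild type (WT) cells were of the C57/BL6 strain and, by the labels, from animals older than 25 weeks (5 cells). The study's text gives a lower age limit for them. Rhodopsin knockout (Rhod-ko) cells, also labelled C57/BL6 and lacking the rod-specific rhodopsin gene, were taken at 8 weeks (5 cells) and at 25 weeks (5 cells). The rd1 mouse, an FVB animal with a mutation in the β subunit of the rod cGMP phosphodiesterase, was sampled at postnatal day 13 (P13, 5 cells) and at 5 weeks (5 arrays), and its P13 control was the congenic WT strain FVB.129P2-Pde6b+Tyrc-ch/AntJ (3 cells). The adult WT cells had been published earlier by the same laboratory. They thus formed an earlier set than the mutant cells compared with them, and differed from 8-week Rhod-ko and 5-week rd1 in age and from rd1 in strain, and these cannot be told apart from genotype. No label names the animal a cell came from, so each condition counted as 1 sample of several cells. No test between conditions was possible, and the differences below are descriptions of these cells.

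Several arrays stood apart. Arrays A5 and A6 of the 5-week rd1 group correlated at 0.989 over all probe sets, against 0.764 for the next closest of 378 pairs, and were averaged to 1 cell, which left 27 cells from 28 arrays. The 3 congenic P13 cells had 4 to 8 of 20 Müller glia markers and 9 to 11 of 11 vascular markers on, and rd1 P13 cells A1 and B1 had 9 and 7 Müller glia markers and 11 and 9 vascular markers on. In these 5 cells, called vascular-marked here, the summed vascular marker signal was 128492 to 168765, against 1105 to 42150 in the other 22, so they went against their label, and the P13 differences are also given without rd1 cells A1 and B1. The congenic controls stay vascular-marked in those values, so cell type cannot be told apart from genotype at P13. With all P13 cells, 12 of 20 Müller glia markers were at least 2-fold higher in rd1 than in congenic cells and 9 of 11 vascular markers lower. Rhod-ko 8-week cell 7 had 7 of 15 microglia markers on, against 0 or 1 elsewhere. Of 13 rod markers, 8-week Rhod-ko cells 7 and 8 had 8 and 7 on (summed signals 292942 and 222917) and the other 3 cells of that group 2 to 4, against 1 to 3 in WT (12598 to 58066), and 6 to 10 were on in the P13 cells. Rlbp1, which encodes a retinoid-binding protein of MGCs, was not on in WT cells MG1, MG16 and MG22. The median probe set signal was 102.3 to 199.0 in the 8-week Rhod-ko arrays and 177.3 in WT cell MG3, against 26.8 to 82.5 in the others, and between 1847 and 3208 genes were on per cell.

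Cytokines of this family bind receptor complexes that all contain gp130 and differ in the partner chain: the leukaemia inhibitory factor receptor (Lifr), the oncostatin M receptor (Osmr) or, for ciliary neurotrophic factor, Lifr together with the non-signalling subunit Cntfr. The bound complex activates Janus kinases, which phosphorylate Stat3. Stat3 then enters the nucleus and induces target genes, among them Socs3, which binds gp130 and the kinases and ends the signal. In the retina the pathway is known for the response of MGCs to injury and for the protection of photoreceptors by Lif and ciliary neurotrophic factor.

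In the following, the signal is the MAS5 intensity, which is scaled per array. A gene counted as on where its signal was 2000 or more. Differences between conditions are differences of the group medians of log2 signal, after signals under 1000 were set to 1000, given with the pooled SD over cells. A difference of at least 1 (2-fold) was called higher or lower by this rule of size. Where 1 median lay under the floor of 1000, the difference is a lower bound on its size and is given as "at least". Signals of different probe sets cannot be set against each other, so levels are not compared between genes. Within a gene the highest probe set can differ between cells, so some comparisons between cells mix probe sets. For Il6st and Stat3 the effect of this is given below. Intervals for shares of cells are exact 95% binomial intervals and include counting error alone.

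Il6st, the shared signal-transducing chain, was on in 19 of 27 cells (70.4%, interval 49.8 to 86.2%) and in at least 2 cells of every condition. Of all genes, 4.1% were on in 19 or more cells. The adult WT signals were 10824 in cell MG1, 8411 in MG16, 8741 in MG15, 640 in MG3 and 130.5 in MG22. In 8-week Rhod-ko the signals were 29003 in cell 8, 28308 in cell 1, 20085 in cell 3, 2194 in cell 2 and 665 in cell 7, so that 3 cells lay above every WT cell and the others among them. At 25 weeks the Rhod-ko signals were 14085 (A3), 9380 (A1), 8346 (A5), 5724 (A4) and 872 (A2). Here 1 cell exceeded the highest WT cell. The 5-week rd1 signals were 15584 (B1), 8330 (A5/A6), 3982 (A1) and 209 (A8). At P13 the congenic cells read 4393 (A5), 4237 (A3) and 78.9 (A4) and the rd1 cells 6039 (B4), 5087 (B1), 3848 (A1), 849 (B3) and 160 (A4), so 2 rd1 cells lay above all congenic cells and the others among them. The lowest cell was under 1000 in every condition.

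The 8-week Rhod-ko median of Il6st was higher than the WT median by 1.26 on the log2 scale (pooled SD 2.05, n = 5 and 5). This value rested on single cells. Without Rhod-ko cell 1, 3 or 8 it was -0.34, -0.09 and -0.34, and without WT cell MG1, MG16 or MG15 it was 2.79, 2.76 and 2.79. The other differences were -0.01 for 25-week Rhod-ko (pooled SD 1.63), -0.55 for 5-week rd1 (1.74) and -0.14 for rd1 P13 (1.26), each smaller than the spread between cells. They passed 1 in size without certain single cells: 1.50 to 1.52 in 25-week Rhod-ko without WT MG1, MG15 or MG16, -1.08 in 5-week rd1 without A5/A6 or B1, and down to -1.11 at P13. Without rd1 cells A1 and B1 the P13 value was -2.08. All these Il6st differences also changed by more than 1 with a single probe set, as given below with Stat3. Across conditions the medians ran from 20085 in 8-week Rhod-ko through 8411 in WT, 8346 in 25-week Rhod-ko, 6156 in 5-week rd1 and 4237 in congenic P13 to 3848 in rd1 P13, and every pair of neighbours in that order overlapped.

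**Figure D1:**
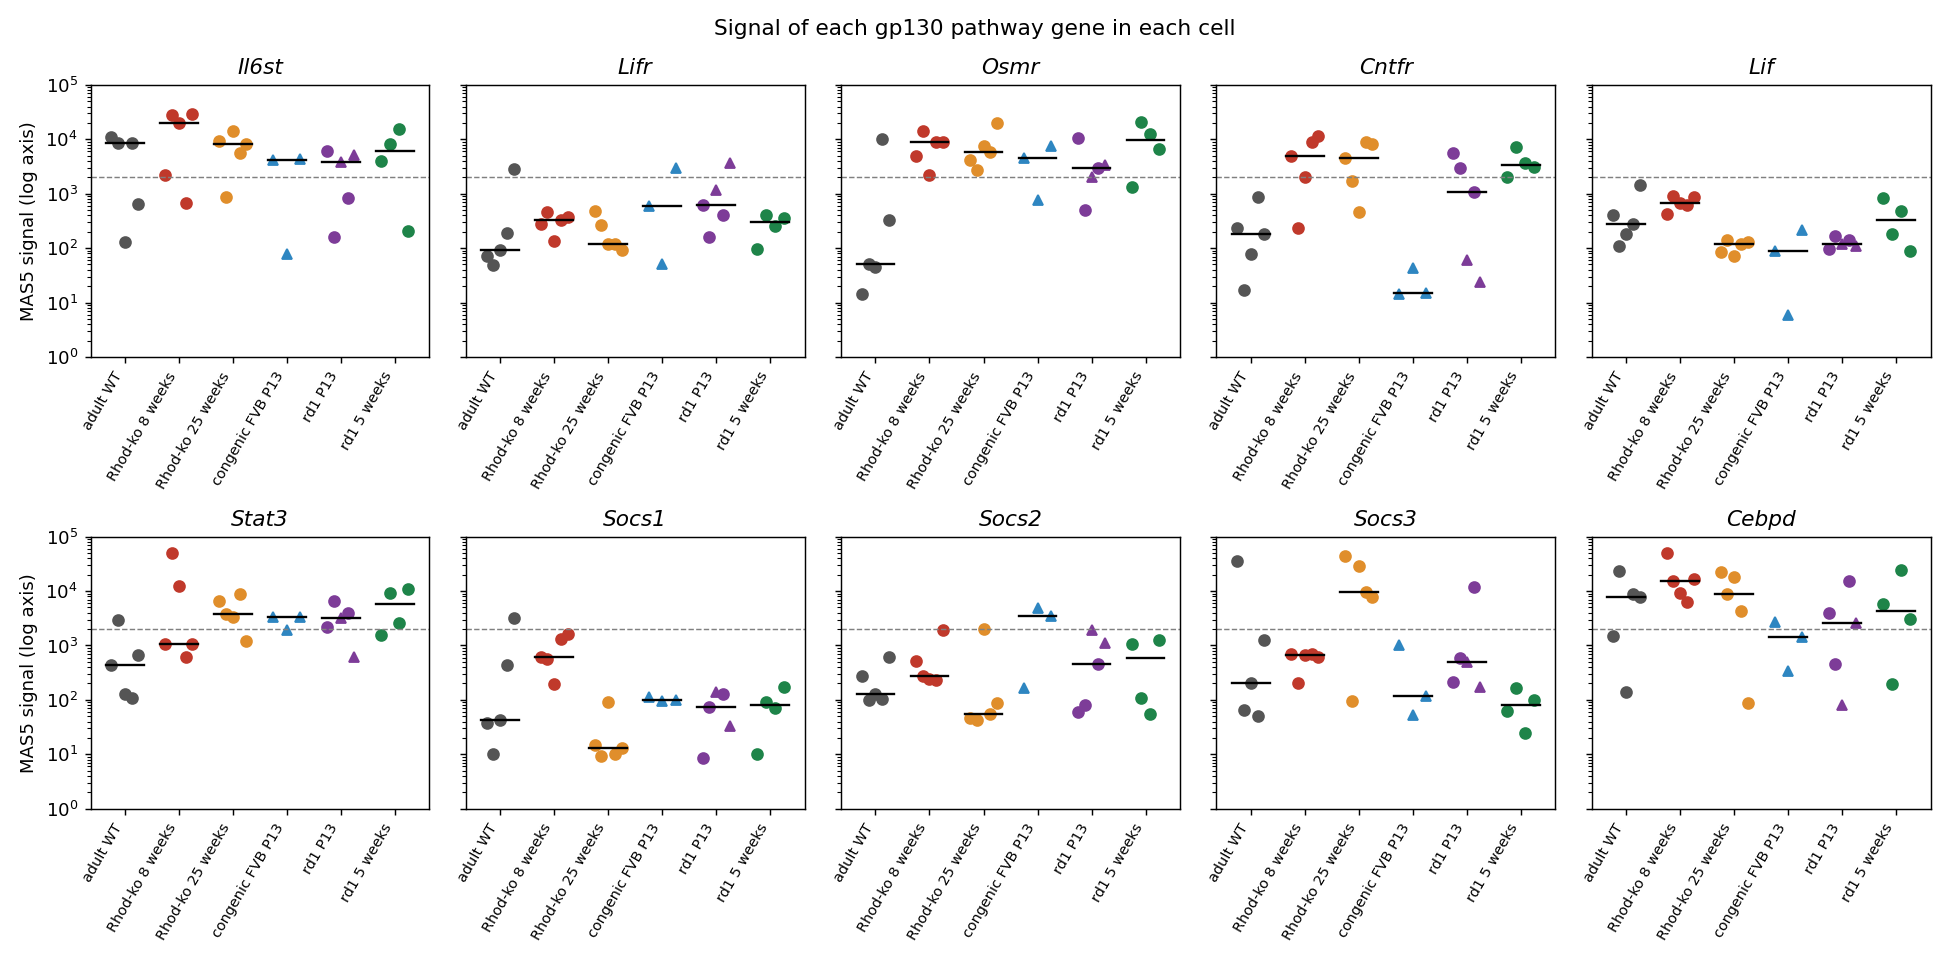
Signals of the 10 genes in each cell, 1 panel per gene, with the MAS5 signal on a log axis and the 6 conditions side by side. Circles are cells, triangles the 5 vascular-marked cells, bars the group medians and the dashed line the level of 2000 at which a gene was called on. Osmr and Cntfr lie low in most or all WT cells and high in most mutant cells, Lif stays under the line in all 27 cells, and Socs3 is split into 6 cells above the line and 21 below it.

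Osmr, the partner chain for oncostatin M, was on in 20 of 27 cells (interval 53.7 to 88.9%), a count that 3.5% of all genes reached. Its promoter is shown because, as for Cntfr, its median was higher in all 3 comparisons with adult WT. The RefSeq sequence on GRCm38.p6 is chr15:6874284-6874563, minus strand, 250 bases before and 30 from the annotated start, 5′ to 3′, with the matches to an AP-1 motif (TGANTCA) and to the GC box (GGGCGG or its reverse complement) in capitals.
Osmr: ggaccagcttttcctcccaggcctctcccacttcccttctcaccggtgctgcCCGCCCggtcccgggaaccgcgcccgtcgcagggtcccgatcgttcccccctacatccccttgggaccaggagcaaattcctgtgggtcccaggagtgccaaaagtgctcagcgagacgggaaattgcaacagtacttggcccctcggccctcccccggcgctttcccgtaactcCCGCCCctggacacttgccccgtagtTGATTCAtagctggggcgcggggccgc

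The AP-1 match lay at 3 and the GC boxes at -198 and -23, counted to the first base of the match from the start at 0. Of all 32851 promoter windows of 300 bases, searched on both strands, 7.81% held the AP-1 motif and 35.66% the GC box. A match is a description of the letters and shows no binding.

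In adult WT cells Osmr was on in MG15 alone, at 10283, and read 324.5 in MG3, 50.8 in MG16, 45.4 in MG22 and 14.5 in MG1. All 5 Rhod-ko cells at 8 weeks had it on, at 14139 (cell 1), 9006 (8), 8991 (7), 4974 (2) and 2189 (3). All 5 at 25 weeks did as well, at 20348 (A5), 7670 (A3), 5877 (A4), 4257 (A1) and 2773 (A2). Thus 4 of 5 WT cells lay below each of the 10 Rhod-ko cells, and the groups overlapped only through WT cell MG15. In 5-week rd1 the signals were 20908 (A5/A6), 12494 (B1), 6768 (A8) and 1310 (A1). At P13 the congenic cells read 7569 (A5), 4497 (A3) and 775 (A4), and the rd1 cells 10566 (B4), 3357 (B1), 2999 (B3), 2019 (A1) and 504 (A4).

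Against adult WT, the Osmr median was higher by at least 3.17 in 8-week Rhod-ko (pooled SD 1.29), at least 2.56 in 25-week Rhod-ko (1.31) and at least 3.20 in 5-week rd1 (1.61), and these 3 comparisons share the same 5 WT cells. Leaving out single cells gave 2.74 to 3.17, 2.32 to 2.75 and 2.76 to 3.64. Without the WT cells that lacked Rlbp1, which left MG15 and MG3, the values were 1.49, 0.87 and 1.52, so the 25-week difference was then under the size called higher. The rd1 P13 median differed from the congenic one by -0.58 (1.34), the same without rd1 cells A1 and B1. With the congenic cells as its control, which are of the same strain but younger and vascular-marked, 5-week rd1 was higher by 1.03. The share of cells with Osmr on was 1 of 5 in WT (interval 0.51 to 71.6%) and 5 of 5 at both Rhod-ko ages (47.8 to 100%).

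Lifr, the chain that Lif itself binds, was on in 3 of 27 cells (interval 2.35 to 29.2%), and 39.2% of all genes were on in 3 or more. The 3 cells were WT MG3 at 2850, congenic P13 A5 at 2988 and rd1 P13 B1 at 3683. In the other 24 cells its highest signal was 1184, in rd1 P13 A1. Of the 4 cells over 1000, the 3 P13 cells were vascular-marked and MG3 had a raised median signal, and the part of either in the Lifr signal was not tested. In the 10 Rhod-ko cells Lifr read 91.4 to 474, and in the 4 rd1 cells of 5 weeks 97.7 to 410.0.

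Cntfr, the subunit that binds ciliary neurotrophic factor, was on in 13 of 27 cells (interval 28.7 to 68.1%), and 9.5% of all genes were on in 13 or more. None of the 5 adult WT cells had it on: the signals were 856 (MG15), 233 (MG1), 183 (MG3), 76.7 (MG22) and 17.3 (MG16), which allows a share of up to 52.2%. In 8-week Rhod-ko it was on in 4 of 5 cells, at 11367 (cell 8), 8932 (7), 5002 (2) and 2069 (3), with 238 in cell 1. In 25-week Rhod-ko it was on in 3 of 5, at 8917 (A4), 8102 (A5) and 4482 (A1), with 1696 in A2 and 467 in A3. The lowest cell of each Rhod-ko group fell within the WT range and the other 4 lay above it. In 5-week rd1 all 4 cells had it on, at 7093 (A5/A6), 3710 (B1), 3040 (A8) and 2047 (A1), and all 4 lay above all WT cells. At P13 the rd1 signals were 5516 (B4), 3016 (A4), 1063 (B3), 61.5 (A1) and 23.4 (B1), and the 3 congenic signals 43.5, 15.0 and 14.4. All 5 vascular-marked cells thus lay at 14.4 to 61.5, while the 3 rd1 P13 cells with most Müller glia markers read over 1000.

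The Cntfr median was higher than in WT by at least 2.32 in 8-week Rhod-ko (pooled SD 1.04), at least 2.16 in 25-week Rhod-ko (0.99) and at least 1.75 in 5-week rd1 (0.49). Leaving out 1 cell moved these to 1.69 to 2.74, 1.46 to 2.59 and 1.60 to 1.89. In 5-week rd1, Cntfr was the only gene of the 10 that was higher with no overlap between the groups, which held for 0.346% of all genes. None of the 10 was higher without overlap in the other comparisons, beside 0.907% of genes in 8-week Rhod-ko, 0.412% in 25-week Rhod-ko and 0.55% in rd1 P13, and none was lower without overlap, beside 0.561%, 0.291% and 0.901% there and 0.346% in 5-week rd1. It was on in at least 3 cells of the mutant group and in no control cell in all 3 comparisons with adult WT, as were 1.41% of genes for 8-week Rhod-ko, 1.87% for 25-week Rhod-ko and 0.665% for 5-week rd1. No gene of the 10 had this pattern in rd1 P13, where 2.06% of all genes had it. The rd1 P13 median was higher than the congenic one by at least 0.09 (0.93) with all cells (medians 1063 and 15.0). Without cells A1 and B1 it was higher by at least 1.59, where the congenic cells remain vascular-marked.

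The ligand gene Lif was on in none of the 27 cells, which allows a share of up to 12.8% (exact interval). Its highest signal was 1476 in WT MG3, followed by 898 and 877 in 8-week Rhod-ko cells 1 and 8 and 837 in 5-week rd1 cell A1. MG3 and the 8-week Rhod-ko arrays had raised median signals, whose part in these values was not tested. Of 7 ligand genes of the family measured, 6 (Il6, Il11, Ctf1, Clcf1, Osm and Lif) were on in no cell, as were 42.2% of all genes. Cntf, the gene for ciliary neurotrophic factor, was not among the 7. The study's text reports high Cntf expression at the early ages of both mutants. Ebi3, a subunit of interleukin-27, was on in 8-week Rhod-ko cell 2 alone, at 4794. The 3 further receptor chains measured, Il6ra, Il27ra and Lepr, were on in no cell either, with highest signals of 818, 538 and 325. Of 5 photoreceptor survival factors, Edn2, Fgf2, Lif, Bdnf and Gdnf, all were under 2000 in all 27 cells. Low signals from single-cell cDNA do not show that a transcript was absent.

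Among the Janus kinases, which couple the receptors to Stat proteins, Jak1 was on in 6 cells and Jak2 in 3, and neither Jak3 nor Tyk2 in any. Jak1 reached 4700 in 25-week Rhod-ko A5 and 3731 in 5-week rd1 A8, and Jak2 reached 7602 in 25-week Rhod-ko A4. Neither was called higher or lower in any comparison. For Jak2 both medians lay under the floor in every comparison, so no difference could be shown. The same held for Jak1 in 25-week Rhod-ko and rd1 P13. In 8-week Rhod-ko and 5-week rd1 the Jak1 differences from WT were at least 0.20 and at least 0.38.

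Stat3, the transcription factor at the end of the kinase step, was on in 16 of 27 cells (interval 38.8 to 77.6%), and 6.3% of all genes were on in 16 or more. In adult WT it was on in MG16 alone, at 2912, with 662 (MG3), 438 (MG1), 127 (MG22) and 106 (MG15) in the others. In 8-week Rhod-ko it read 50715 in cell 1 and 12340 in cell 3, against 1081 (2), 1055 (8) and 611 (7). At 25 weeks 4 of 5 Rhod-ko cells had it on, at 9016 (A4), 6548 (A1), 3849 (A2) and 3371 (A3), with 1202 in A5. The 25-week cells overlapped WT only through MG16, while the 8-week cells were split between a high pair and 3 cells near the floor. In 5-week rd1 the signals were 10982 (A8), 9201 (A5/A6), 2587 (B1) and 1580 (A1). At P13 the congenic cells read 3374 (A5), 3312 (A3) and 1891 (A4) and the rd1 cells 6570 (A4), 3894 (B3), 3233 (A1), 2223 (B4) and 602 (B1). The congenic range lay within the rd1 range.

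The Stat3 median was higher than in WT by at least 1.94 in 25-week Rhod-ko (pooled SD 0.93; 1.85 to 2.33 with 1 cell left out) and at least 2.29 in 5-week rd1 (1.04; 1.37 to 3.20). For 8-week Rhod-ko the difference was at least 0.11 (1.91), and it passed 1 when cell 2, 7 or 8 was left out (1.85 to 1.87), with group means (1.59) and with a floor of 500 (1.11). Against the congenic control, 5-week rd1 differed by 0.56, and with a floor of 2000 the 25-week value was 0.94, both under the size called higher. At P13 it was -0.03 (0.87). Without rd1 cells A1 and B1 it was 0.23.

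The Stat3 values depended on the probe set. Of its 4 probe sets, 1460700_at was on in 12 cells and 1459961_a_at in 7, and both in only 3: 25-week Rhod-ko A3 and A4 and rd1 P13 B3. The high signals of 8-week Rhod-ko cells 1 and 3 were from 1459961_a_at, with 629 and 267 at 1460700_at. In 5-week rd1, A8 read 10982 at 1459961_a_at and 122 at 1460700_at, and A5/A6 the reverse, at 111 and 9201. With a single probe set for the gene, the difference from WT was at least 1.75 in 25-week Rhod-ko and 0 in 8-week Rhod-ko and 5-week rd1. By cell, Il6st split less: 1452843_at was on in 17 of the 19 cells and 1437303_at in 4, with WT MG16 and rd1 P13 B1 on by the latter alone. Its differences still depended on the probe set. With a single probe set the Il6st differences were at least 4.33, 3.06 and 2.53 for 8-week Rhod-ko, 25-week Rhod-ko and 5-week rd1 against WT and -1.93 for rd1 P13. By the highest probe set they were 1.26, -0.01, -0.55 and -0.14. Osmr was on by 1 of its 3 probe sets and Cntfr by 1 of 2, while the 6 cells with Socs3 on had all 3 of its probe sets on.

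**Figure D2:**
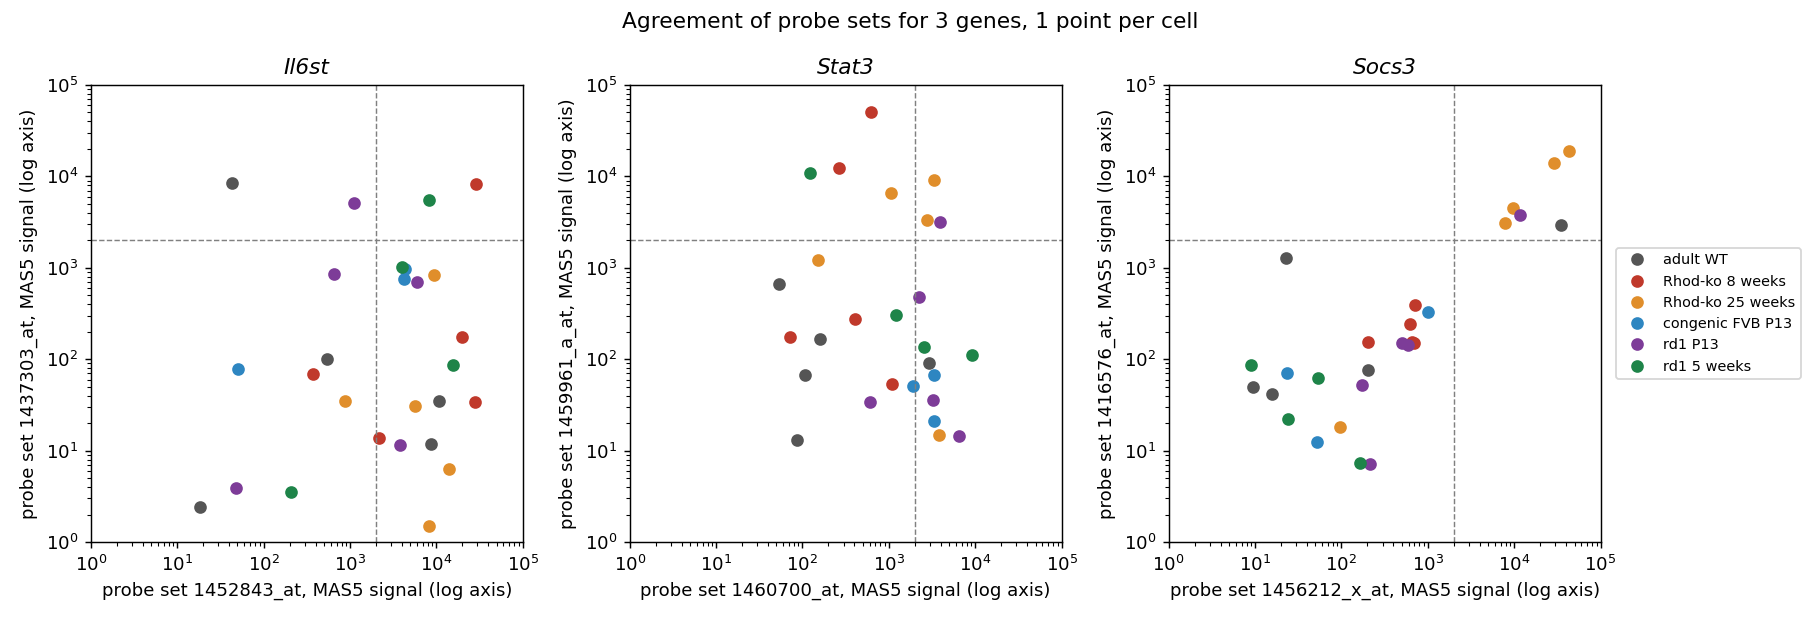
Signals of a pair of probe sets of the same gene in each of the 27 cells, on log axes, for Il6st (1452843_at on x, 1437303_at on y), Stat3 (1460700_at and 1459961_a_at) and Socs3 (1456212_x_at and 1416576_at). Dashed lines mark 2000. The Socs3 probe sets are high in the same 6 cells, whereas most cells with Stat3 on are high at only 1 of the pair.

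Of 5 further Stat genes measured, Stat5b was on in 5 cells, Stat6 in 3, Stat2 and Stat5a in 1 each and Stat4 in none. In the comparisons with adult WT both medians of all 5 genes lay under the floor, so none could show a difference. At P13, Stat6, which acts in interleukin-4 signalling, was lower in rd1 than in congenic cells (difference at most -1.69 as a bound), as was Stat5b, a mediator of growth hormone and cytokine signals (at most -1.16). Both values were the same without rd1 cells A1 and B1. The congenic Stat6 signals were 4141, 3218 and 865, and in rd1 P13 the vascular-marked cell A1 held the highest, 6238.

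Of the feedback genes, Socs3 was on in 6 of 27 cells (interval 8.62 to 42.3%), and 24.8% of all genes were on in 6 or more. Its promoter is shown because Socs3 is a direct Stat3 target and the only one of the genes whose windows held the palindrome TTCNNNGAA, the core of a Stat site. The RefSeq sequence on GRCm38.p6 is chr11:117969337-117969616, minus strand, 250 bases before and 30 from the start, 5′ to 3′, with the palindrome and the GC box in capitals.
Socs3: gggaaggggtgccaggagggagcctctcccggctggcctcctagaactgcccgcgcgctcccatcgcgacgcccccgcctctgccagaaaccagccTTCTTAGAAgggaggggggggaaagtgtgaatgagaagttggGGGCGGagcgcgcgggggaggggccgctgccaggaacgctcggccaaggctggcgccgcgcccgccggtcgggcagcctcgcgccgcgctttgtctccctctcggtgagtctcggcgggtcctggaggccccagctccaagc

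The palindrome lay at -154 and the GC box at -112. Promoter windows were given for 8 of the 10 genes, 14 windows in all. The palindrome was in 1 of them, against 8.3% of all windows, the AP-1 motif in 2 (1 each of Osmr and Lif), the GC box in 10 and the motif TATAAA in 0, against 13.62% of all windows. The Osmr window shown above held no such palindrome, which says only that these letters are not in it.

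The Socs3 signals were 35188 in WT cell MG1, 1273 in MG3, 203 in MG22, 64.3 in MG16 and 50.1 in MG15. In 25-week Rhod-ko they were 43245 (A1), 29297 (A3), 9678 (A4), 7777 (A5) and 95.4 (A2). In 8-week Rhod-ko all 5 cells lay between 202 and 706. In Rhod-ko, Socs3 was thus on in 4 of 5 cells of the older animals (interval 28.4 to 99.5%) and in 0 of 5 of the younger (0 to 52.2%), and these intervals overlap. In rd1 P13, B3 read 11713 and the others 175 to 593. The 3 congenic cells read 1005 (A3), 116 (A5) and 51.7 (A4), and the 4 rd1 cells of 5 weeks 24.1 to 165.

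The 25-week Rhod-ko median of Socs3 was higher than that of WT by at least 3.27 (pooled SD 2.19; 3.10 to 4.07 with 1 cell left out), and the groups overlapped through WT MG1 and Rhod-ko A2. In the other 3 comparisons both medians lay under 1000, so no difference was measurable. The signal was either high or near the floor: no cell lay between 1273 and 7777.

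Socs1, a further inhibitor of Janus kinases, was on in 1 cell, and 57.8% of all genes were on in 1 or more. That cell was WT MG3, at 3178. The next signals, 1650 and 1313, were in 8-week Rhod-ko cells 8 and 7, and all cells outside these arrays read 431 or less. MG3 and the 8-week Rhod-ko arrays were those with raised median signals, and the part of this in Socs1 was not tested. Socs2, a feedback inhibitor best known from growth hormone signalling, was on in congenic P13 cells A4 at 4889 and A5 at 3417, each by a different one of its 6 probe sets. Just under the level were 25-week Rhod-ko A3 at 1986, 8-week Rhod-ko cell 8 at 1960 and rd1 P13 A1 at 1950. The rd1 P13 median was lower than the congenic one (difference at most -1.77 as a bound, pooled SD 0.77), with -0.89 without congenic A4, -1.14 without A5 and 0 with 1 probe set. It was also -1.77 without rd1 cells A1 and B1. Both cells with Socs2 on were vascular-marked, and 46.7% of all genes were on in 2 or more cells.

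Of 13 further genes for inhibitors of the pathway (Socs family, PIAS proteins and phosphatases), most showed no difference of 2-fold. Both medians were under the floor for 7 of the 13 in 8-week Rhod-ko, 8 in 25-week Rhod-ko, 8 in 5-week rd1 and 6 in rd1 P13. Those genes could show no difference. In 8-week Rhod-ko Pias2 and Ptpn11 were lower than in WT (at most -1.63 and -2.04), and in 25-week Rhod-ko Pias1 was higher (at least 1.04). In 5-week rd1 Socs7 was higher (at least 2.55) and Socs5 lower (at most -1.80), and in rd1 P13 against congenic cells Socs7 was higher (at least 1.63, and 2.41 without cells A1 and B1) and Socs5 lower (at most -1.30, the same without them). Socs5 and Socs7 are members of the Socs family less tied to gp130 signalling than Socs3. Ptpn11 encodes the phosphatase Shp2, which binds gp130.

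Cebpd, a transcription factor gene that Stat3 induces, was on in 19 of 27 cells (interval 49.8 to 86.2%). Of all genes, 4.1% were on in 19 or more. In adult WT it read 23449 (MG16), 8924 (MG15), 7769 (MG3), 1467 (MG1) and 142 (MG22). In 8-week Rhod-ko all 5 cells had it on, at 49680 (cell 2), 16880 (8), 15009 (1), 9209 (3) and 6179 (7). In 25-week Rhod-ko it read 22225 (A1), 18429 (A3), 8669 (A2), 4237 (A4) and 88.9 (A5). All 3 adult C57/BL6 groups thus overlapped widely. In 5-week rd1 the signals were 24333 (B1), 5708 (A1), 3077 (A8) and 198 (A5/A6). At P13 the congenic cells read 2698 (A3), 1431 (A5) and 334 (A4) and the rd1 cells 15425 (B3), 4014 (B4), 2575 (B1), 454 (A4) and 80.9 (A1).

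No Cebpd difference reached 1 with all cells and medians. The values were 0.95 for 8-week Rhod-ko (pooled SD 1.57), 0.16 for 25-week Rhod-ko (1.86), -0.89 for 5-week rd1 (1.91) and 0.85 for rd1 P13 (1.40). Each passed 1 in size when certain single cells were left out, with ranges of 0.60 to 2.15 for 8-week Rhod-ko, -1.34 to 0.31 for 5-week rd1 and 0.17 to 1.17 for rd1 P13. The 25-week value rose to between 1.26 and 1.36 without WT MG3, MG15 or MG16. The P13 value was 1.49 without rd1 cells A1 and B1, the 8-week value 1.65 with group means, and 5-week rd1 was higher by 1.55 against the congenic control, the opposite direction to that against WT. It was 1.13 at P13 and -1.17 in 5-week rd1 with 1 probe set.

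**Figure D3:**
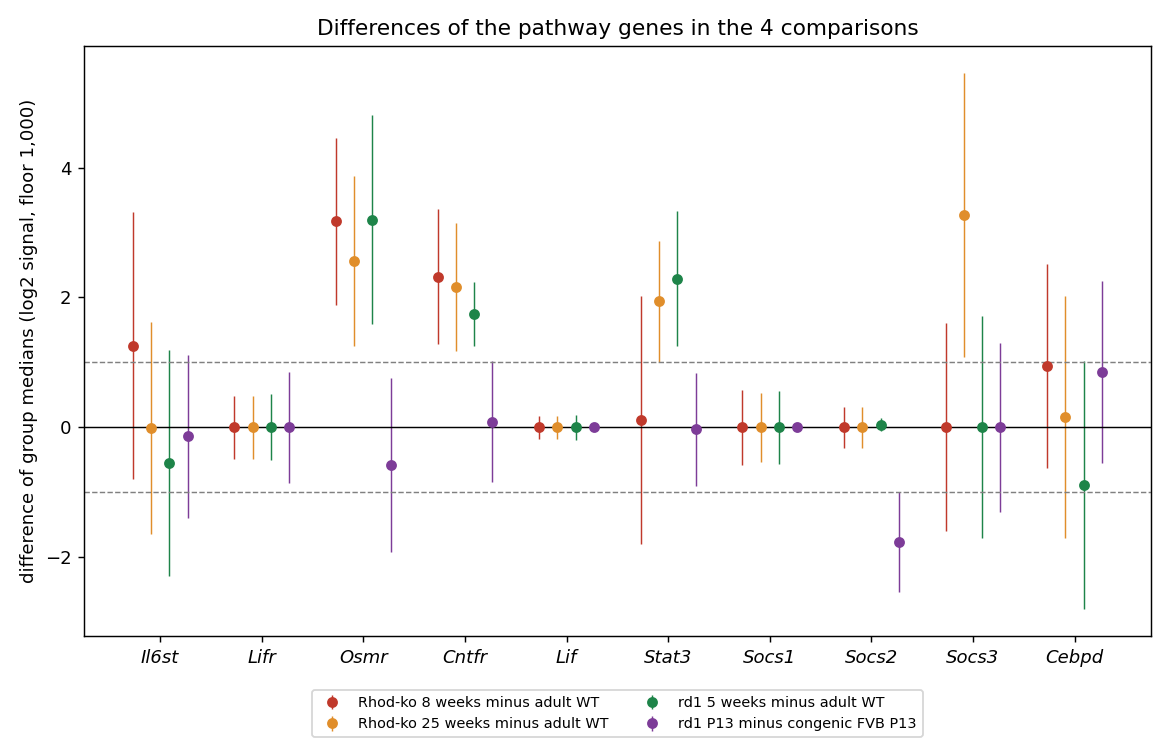
Differences of group medians of log2 signal for the 10 genes in the 4 comparisons, with bars of the pooled SD over cells on each side and dashed lines at 1 and -1. Osmr and Cntfr lie above 1 in all 3 comparisons with adult WT, Stat3 in 25-week Rhod-ko and 5-week rd1, and Socs3 in 25-week Rhod-ko alone, where its value is a lower bound of 3.27.

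Of the 10 genes, 3 were higher in 8-week Rhod-ko than in WT (Il6st, Osmr and Cntfr), beside 6.17% of all genes tested, and none was lower, beside 5.12%. Rod markers moved with this group: 6 of 13 were higher, and their part in these values was not tested. Without cells 7 and 8, which had most rod markers on, 4 of the 10 were higher. The differences were 1.26 for Il6st, at least 2.31 for Osmr, at least 1.05 for Cntfr and at least 3.63 for Stat3. The share of all genes higher without these cells was not computed. In 25-week Rhod-ko 4 were higher (Osmr, Cntfr, Stat3 and Socs3), beside 7.9%, and none lower, beside 3.7%. In 5-week rd1 3 were higher (Osmr, Cntfr and Stat3), beside 6.35%, and none lower, beside 4.25%. In rd1 P13 against congenic FVB none was higher, beside 4.79%, and 1 was lower (Socs2), beside 6.41%. The median difference over the 10 genes was 0.06, 0.08, 0 and 0 in these comparisons, and over all genes 0. For 5, 4, 5 and 4 of the 10 genes both medians were under the floor, so these genes could show no difference. The same held for 14592, 14411, 14632 and 13206 of all 18194 genes, a larger part, which fixed their median at 0. The shares over all genes are lowered by such genes more than the counts of the 10, so no excess is read from them. The 3 comparisons with WT share their control cells and are not separate evidence of one another.

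Of 22 known Stat3 targets or injury response genes measured beside Socs3 and Cebpd, 7 were on in no cell (Cebpb, Myc, Pim1, Vegfa, Birc5, Il4ra and Fgf2), where 42.2% of all genes were. In 8-week Rhod-ko 4 were higher than in WT and 4 lower, beside 6.17% and 5.12% of all genes, and no excess is read from this. The higher ones were Gfap, the glial intermediate filament gene (at least 6.06), the survival gene Mcl1 (at least 4.92), the acute phase gene Serpina3n (at least 4.10) and the protease inhibitor gene A2m (at least 3.08). The lower ones were the immediate early gene Fos (at most -4.28), the survival gene Bcl2l1 (-2.77), the cyclin gene Ccnd1 (-1.80) and the hypoxia factor gene Hif1a (-1.14). Mcl1 and Bcl2l1, both genes against cell death, thus lay on opposite sides. Fos read 38 to 103 in all 5 Rhod-ko cells of 8 weeks, and in WT 90168 (MG1), 21689 (MG16), 19402 (MG15), 5010 (MG22) and 374 (MG3).

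In 25-week Rhod-ko 3 targets were higher (Mcl1 at least 3.98, the AP-1 gene Junb at least 1.98 and Serpina3n at least 1.92) and Bcl2l1 was lower (at most -3.08). In 5-week rd1 Gfap (at least 2.85) and Mcl1 (at least 1.88) were higher and Ccnd1 (at most -3.04) and Bcl2l1 (-1.80) lower. In rd1 P13 Gfap (at least 3.55), the ferroxidase gene Cp (at least 2.90), Fos (at least 2.45) and Serpina3n (at least 1.17) were higher, and Ccnd1 (-2.75) and Hif1a (-1.27) lower. Without rd1 cells A1 and B1 these were at least 4.48 for Gfap, 3.34 for Cp, 4.46 for Fos and 2.23 for Serpina3n, with Ccnd1 at -2.75 and Hif1a at -0.64, under the size called lower. The congenic cells remain vascular-marked here, so these values cannot be told apart from a difference in cell type. Of all genes, 7.9% were higher and 3.7% lower in 25-week Rhod-ko, and 6.35% and 4.25% in 5-week rd1. In rd1 P13 the shares were 4.79% and 6.41%. No excess is read from the target counts here either. The median over the 22 genes was 0 in all 4 comparisons. Both medians were under the floor for 13, 14, 14 and 13 of the 22, which fixed this value. It therefore does not show that the targets as a whole stayed the same. Gfap and Socs3 divided the Rhod-ko ages: Gfap was on in 4 of 5 cells and Socs3 in 0 of 5 at 8 weeks, and at 25 weeks Gfap in 1 of 5 and Socs3 in 4 of 5. This contrast between ages was not tested, and the 8-week arrays also had a Gapdh 3′/5′ signal ratio of 3.95 to 18.17, against 0.55 to 3.00 for 25-week Rhod-ko and all other arrays but MG3 (4.06). The part of that ratio in the contrast was not tested.

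**Figure D4:**
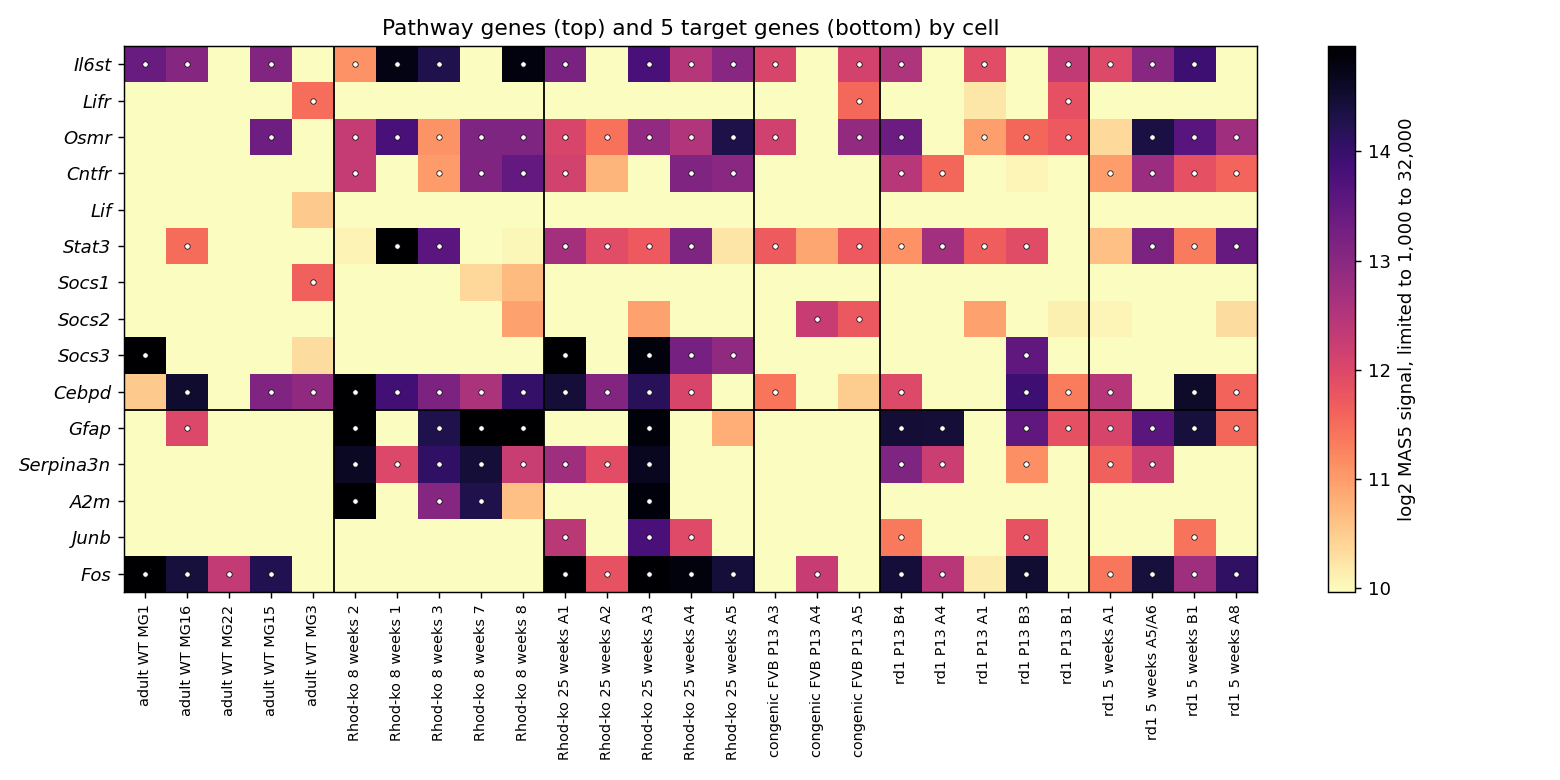
Heat map of log2 signal, with colours starting at 1000, for the 10 genes (top) and the targets Gfap, Serpina3n, A2m, Junb and Fos (bottom) in the 27 cells, grouped by condition. White dots mark genes that were on. WT cell MG22 has none of the 10 genes on and 25-week Rhod-ko cells A1 and A4 have 6, and the cells with Socs3 on are mostly in the 25-week Rhod-ko block.

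The number of the 10 genes on per cell ran from 0 in WT MG22 to 6 in 25-week Rhod-ko A1 and A4. It was 0 to 3 in WT, 3 to 5 in 8-week Rhod-ko and 3 to 6 in 25-week Rhod-ko. In congenic P13 it was 1 to 5, in rd1 P13 2 to 5 and in 5-week rd1 3 to 5. Of all genes, 1847 to 2603 were on in WT cells, 1970 to 2363 in 8-week Rhod-ko and 2670 to 3123 in 25-week Rhod-ko. The numbers were 2927 to 2998 in congenic P13, 2841 to 3072 in rd1 P13 and 1858 to 3208 in 5-week rd1. The part of this in the counts of the 10 genes was not tested. Both Il6st and Osmr, the chains of the oncostatin M receptor, were on in 16 cells: 1 WT, 4 at each Rhod-ko age, 2 congenic, 3 rd1 P13 and 2 of 5-week rd1. Both Il6st and Lifr were on in 2 cells, congenic A5 and rd1 P13 B1, both vascular-marked. No cell had Il6st, Lifr and Cntfr on together, the full receptor for ciliary neurotrophic factor, while 10 had Il6st and Cntfr and 9 had Il6st, Osmr and Cntfr.

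Receptor presence was then set against pathway output in the same cells. Socs3 was on in 4 of the 16 cells with both Il6st and Osmr and in 2 of the other 11. All 4 were 25-week Rhod-ko cells, where the receptor pair and Socs3 were on in the same 4 of 5 cells, whereas at 8 weeks Socs3 was on in 0 of the 4 cells with the pair. Cebpd was on in 12 of 16 against 7 of 11, Stat3 in 11 of 16 against 5 of 11, Gfap in 8 of 16 against 6 of 11, Serpina3n in 8 of 16 against 5 of 11 and Junb in 5 of 16 against 1 of 11. Without the 5 vascular-marked cells, Socs3 was on in 4 of 12 cells with the pair and 2 of the other 10, and Cebpd in 10 of 12 against 7 of 10. Of the 13 cells with Cntfr on, Stat3 was on in 8, Socs3 in 3, Cebpd in 10, Gfap in 10 and Serpina3n in 9, and of the 14 others in 8, 3, 9, 4 and 4. Without the vascular-marked cells, Gfap was on in 3 and Serpina3n in 4 of the 9 others. Among the 19 mutant cells, the 6 without Cntfr on had Gfap on in 3 and Serpina3n in 4.

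Rank correlations over cells are given as a description only, since cells of a condition may share animals and the values of an array share 1 scale. Here and below they use signals without the floor, so low signals are ranked as well. Socs3 and Junb were each on in 6 of 27 cells, so most of their ranks order signals under 2000. Spearman's rho between Cntfr and Serpina3n was 0.60 over 27 cells and 0.38 over the 22 without vascular-marked cells, but 0.02 over the 17 mutant cells among these. Between Cntfr and Gfap it was 0.47, 0.41 and 0.27. Osmr and Cntfr had a rho of 0.53, 0.59 and 0.39, and Il6st and Osmr of 0.45, 0.38 and 0.45. Osmr and Socs3 were near 0 (-0.08, -0.17 and -0.08), as were Stat3 and Socs3 (0.05 over 27 cells). Socs3 and Junb had 0.52, 0.59 and 0.63.

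**Figure D5:**
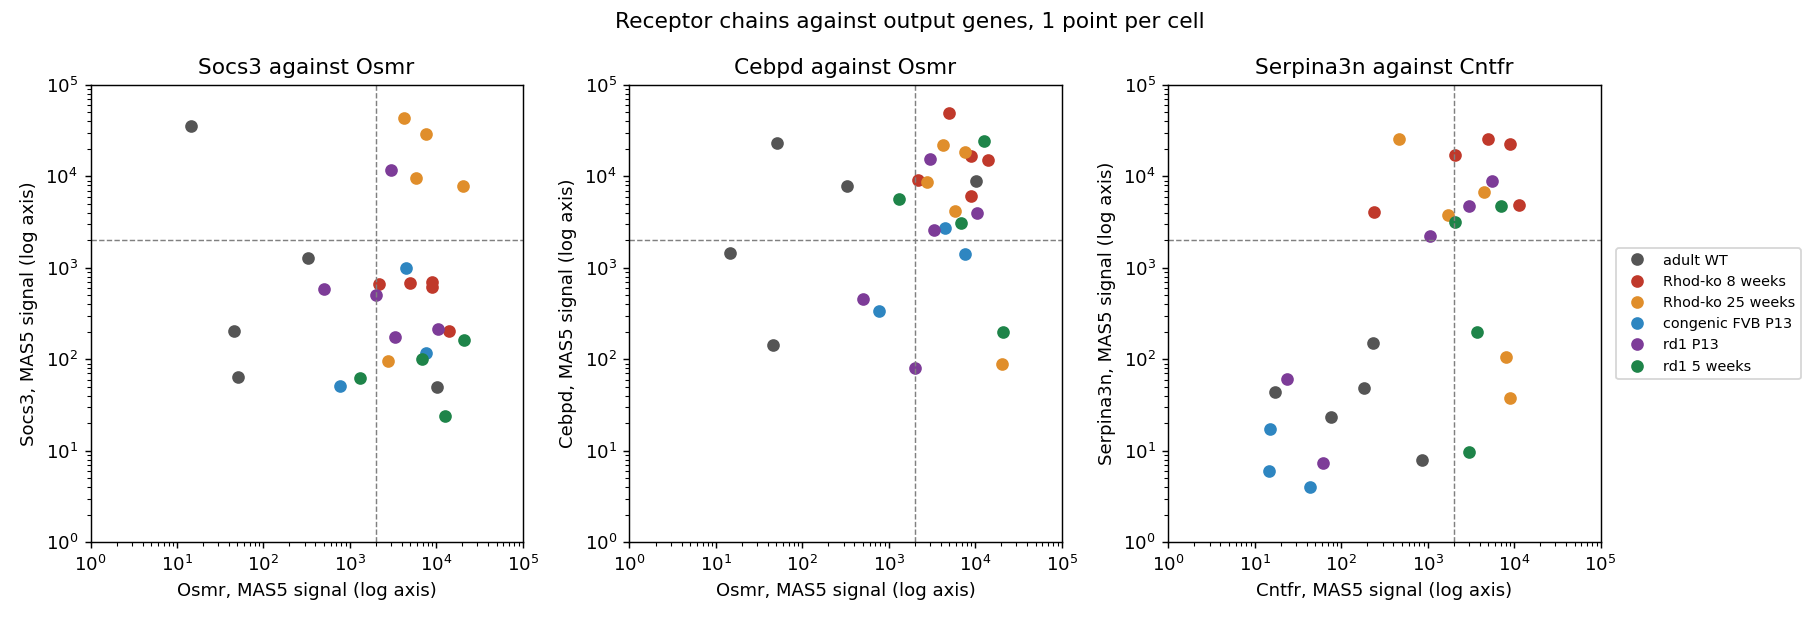
Receptor signal against output signal in the 27 cells on log axes, for Socs3 against Osmr, Cebpd against Osmr and Serpina3n against Cntfr, with cells coloured by condition and dashed lines at 2000. Among the 20 cells with Osmr on, the cells with high Socs3 are mainly from 25-week Rhod-ko, and Serpina3n is on in 4 of the 14 cells without Cntfr.

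The 3 genes with the most similar pattern over 27 cells, by Spearman's rho among 2950 genes that were on in at least 9 cells (2951 for Socs3), were found for each of the 6 genes on in at least 6 cells. For Cntfr they were Lrp1 (0.79), Fxyd1 (0.78) and Tgfb2 (0.77), where the highest 1% of genes began at 0.62. For Osmr they were Scd2 (0.73), Pmp22 (0.71) and Ndrg2 (0.71), with the highest 1% from 0.53. For Cebpd they were Utp14b (0.71), Map3k5 (0.71) and Psmc5 (0.67), for Stat3 Stt3b (0.67), Psap (0.66) and Trappc4 (0.65), and for Il6st Braf (0.66), Malat1 (0.64) and Cry2 (0.62). Socs3 had the lowest values, with Ctsf (0.60), Adamts5 (0.58) and Rnh1 (0.58). Lrp1 encodes a large endocytic receptor and Tgfb2 a transforming growth factor ligand. None of the 18 was another of the 10 genes.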

How the data were processed

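Single cells had been picked as MGCs from dissociated retinas, and their oligo dT-primed cDNA was amplified by PCR and hybridized to Affymetrix mouse arrays. The deposited values are intensities on a linear scale, which the authors computed with MAS 5.0, scaled per array. Of 45101 probe sets, 34958 have 1 gene symbol in the array annotation, 932 several and 9211 none, and the 34958 gave 18194 genes. The files hold no counts, so the number of arrays limits the precision, and amplification of single-cell cDNA can lose a transcript or raise its spread.

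A gene took its highest probe set per cell. It was on at a signal of 2000. For differences, signals were floored at 1000, log2 transformed and compared as group medians, with 1 (2-fold) taken as a size limit without a test. The pooled SD is over cells. Samples were grouped by their labels, and 2 near-identical arrays were averaged. Since no animal is named, each condition is 1 sample and no p-value was computed. Exact 95% binomial intervals were used for shares of cells. The genes, the pathway lists and the marker lists were chosen with earlier results of these data known. Named outside the 10 genes were list genes on in at least 3 cells of a condition or different by 1 in a comparison, the 3 genes of highest Spearman's rho with each of the 10 that was on in at least 6 cells, and a few more list genes named after their values were seen. Members of the family not measured by a single-symbol probe set were not analysed here. Promoters were from RefSeq (GRCm38.p6).

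Results were computed again with a single probe set for each gene, after quantile normalization, after scaling arrays to a common 90th percentile, with floors of 500 or 2000, with means in place of medians, with on thresholds of 500, 1000 or 5000, with A5 and A6 as separate cells, with congenic cells as control for 5-week rd1, and without single or marked cells. Leaving out WT cells without Rlbp1 on or 8-week Rhod-ko cells with most rod markers on, P13 list genes without vascular-marked rd1 cells, and counts and rho without vascular-marked cells or over mutant cells, were chosen after seeing the data. Steps were tested on simulated data. The software was matplotlib 3.10.9, SciPy 1.17.1, NumPy 2.4.6 and pandas 2.3.3 under Python 3.11.15.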

Additional observations from a re-analysis of the deposited data

Results flagged for a closer look

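Within conditions of 4 or 5 cells, 16 of 52 combinations of gene and condition, over 15 genes, held 1 cell far above the others (gap to the nearest cell over the whole range, Dixon's 95% critical value). Signals were floored at 1000 first, and in 12 of the 16 all other cells lay under that floor, so that a single cell over it was enough and the usual rate of 1 in 20 by chance does not apply. A further 23 combinations were at the floor in every cell and were not assessed. In adult WT the cells were MG3 for Lifr (2850.2), Lif (1476.2) and Socs1 (3177.8), MG15 for Osmr (10283.2), MG16 for Stat3 (2912.5) and Gfap (4046.8) and MG1 for Socs3 (35187.9). In Rhod-ko they were 8-week cell 8 for Socs2 (1959.9) and cell 7, the cell with microglia markers, for the acute phase gene Lcn2 (3219.0), and 25-week cell A3 for Socs2 (1986.3), Gfap (29918.0) and A2m (29621.6). In rd1 they were P13 cell B1 for Lifr (3683.4), A1 for Socs2 (1950.4) and B3 for Socs3 (11713.1), and 5-week cell B1 for Junb (2731.4). Of these, rd1 P13 cells A1 and B1 were vascular-marked. The causes were not tested.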

How the results depend on the processing

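No paired analysis was possible because the cells carry no number that pairs them across conditions and no test was run. The 8-week Rhod-ko difference in Il6st turned from 1.26 to -0.34, -0.09 and -0.34 without Rhod-ko cell 1, 3 or 8, and ran up to 2.79 without a WT cell. The shares over all genes given above are for the main rule and were not computed for the alternatives. The counts that follow thus have no share beside them. Of the 10 genes, 5 were higher and 1 lower in 8-week Rhod-ko with group means. Without the cell with microglia markers, 5 were higher. In 5-week rd1, 1 was lower with 1 probe set per gene, group means, A5 and A6 separate or the congenic control, and 2 with 90th percentile scaling. In rd1 P13, 1 was higher with a floor of 500 or 1 probe set, 0 were lower with a floor of 2000, 2 were lower with quantile normalization, and 2 were higher and 2 lower without rd1 cells A1 and B1. With 1 cell left out, the number higher was 2 to 5 in 8-week Rhod-ko, 4 to 6 in 25-week Rhod-ko, 3 in 5-week rd1 and 0 to 1 in rd1 P13, and the number lower was 0, 0, 0 to 2 and 0 to 2.

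At a threshold of 500, cells with a gene on numbered 6 for Lifr, 6 for Lif, 5 for Socs1, 10 for Socs2 and 14 for Socs3, with 6 for Il6st and Lifr together and 11 for Il6st, Osmr and Socs3. At 1000 they were 1 for Lif, 3 for Socs1 and 8 for Socs2. At 5000 they were 0 for Lifr, Socs1, Socs2 and the pair Il6st and Lifr, 12 for Osmr, 7 for Cntfr, 7 for Stat3, 9 for Il6st and Osmr and 5 for Il6st, Osmr and Cebpd. With 1 probe set they were 7 for Stat3, 1 for Socs2 and 1 for Il6st and Lifr, with quantile normalization 1 for Lif and 2 for Socs1, and with 90th percentile scaling 1 for Lif, 2 for Socs1 and 4 for Socs2. Leaving out 1 cell moved each count by at most 1. The cause of these changes was not tested. Of the single-gene differences under the alternatives, 281 moved by less than the spread between cells or not at all, and 39 by more. This count leaves out the runs with 1 cell left out. It includes genes with both medians under the floor, whose difference is held at or near 0, so it overstates how stable the differences were. The 90th percentile scaling moved the median shift of genes over the floor from -0.25 to -0.75 in 8-week Rhod-ko, -0.08 to -1.35 in 25-week Rhod-ko, -0.23 to -0.72 in 5-week rd1 and -0.11 to -0.08 in rd1 P13. Osmr and Cntfr kept their direction in the 3 comparisons with WT under every alternative run, though 25-week Osmr fell under 1 without the WT cells lacking Rlbp1 (0.87) and 5-week rd1 Cntfr with a floor of 2000 (0.75).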
